A study of Homo sapiens with 2 samples.

Results

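The ABC genes encode a superfamily of membrane transporters and their non-transporting relatives, and they were taken as the rows of the expression table whose symbol is ABC followed by a letter from A to G and a digit. There were 45 such rows among the 18930 genes of the table. Of these, 44 had counts, and 39 had at least 10 reads over both libraries and were compared. ABCC12 had no count, and ABCC3, ABCA4, ABCB11, ABCB4 and ABCG5 had fewer than 10 reads. The members were placed by their known roles into drug efflux pumps (11 rows), lipid and sterol transporters (18), peroxisomal and lysosomal transporters (5), mitochondrial transporters (4), potassium channel regulators (2) and non-transport members (4).

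The study sequenced RNA from cells labelled A375, a human melanoma cell line, to compare DTIC-resistant (DR) cells with wild-type (WT) cells. DTIC, or dacarbazine, is a drug that alkylates DNA. Fetal bovine serum was added to the medium, which is DMEM by the labels and RPMI-1640 by the study's methods. In the latter, resistance was induced by keeping cells in rising concentrations of the drug, and WT is the control. The labels, however, give 105 days of the drug, spelled DITC there, for both libraries. There was 1 library labelled DR and 1 library labelled WT, so no difference has a replicate check and none was tested.

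Each count column was assigned by the sample description that carries its name. The 2 names differ in 1 punctuation mark and both resemble the title of the DR sample, so every direction below rests on those descriptions. Pairs of values are given with DR first and WT second. The libraries held 54878310 and 35294629 reads. Levels are given as CPM, a read count divided by the size of its library after TMM scaling, so that 1 read was worth 0.018 and 0.0287 CPM. Checked against marker genes, both libraries went against the labelled cell type, with melanocytic genes low and plasma cell genes high, so they are named here by their labels alone. Of 15 melanocytic genes listed, 13 had counts, and they summed to 50.7 and 45.8 CPM, of which MITF supplied 34.6 and 34.7. SOX10, a factor that defines the melanocytic lineage, had 3 and 0 reads, and TYRP1, a pigment enzyme, had 0 and 17. The 17 plasma cell genes summed to 13294 and 11213 CPM, the 7 fibroblast genes with counts to 14.4 and 3.27 CPM, and the 6 hepatocyte and enterocyte genes with counts to 1.01 and 0.516 CPM. The fibroblast collagens COL1A2 and COL3A1 had at most 1 read in a library. Past 2-fold higher in the library labelled DR was 1 of 9 melanocytic genes compared (CDH19), against 7.48% of all genes compared. So were 5 of 17 plasma cell genes (MZB1, TNFRSF13B, DERL3, CD79A and FCRL5) and 2 of 3 fibroblast genes compared (COL1A1 and PDGFRB). Of the 9 melanocytic genes, 7 had log2 fold changes below 0 and 2 above 0. PDGFRB had 209 reads and 1 read, so it passed the read minimum through the library labelled DR alone. MZB1 had 25063 and 7815 reads, or 451 and 224 CPM, at a log2 fold change of 1.01 (0.97 to 1.04). TNFRSF13B had 5497 and 1151 reads, or 98.9 and 33.0 CPM, at 1.57 (1.48 to 1.66). DERL3 had 7680 and 2267 reads, or 138 and 65.0 CPM, at 1.08 (1.01 to 1.15), and COL1A1 had 572 and 109 reads, or 10.3 and 3.13 CPM, at 1.57 (1.31 to 1.84). On the scale of log2 (CPM + 0.5), used for every log2 fold change here, 0 genes of these lists were 2-fold lower. TYRP1 lay just under that line at -0.98, a value that rests on the added 0.5 CPM. Without that addition, the upper end of the counting interval of its CPM ratio was 0.152. The plasma cell genes did not all go 1 way, with log2 fold changes above 0 for 11 of 17 and below 0 for 6. The lowest were SDC1 at -0.62, JCHAIN at -0.54 and IRF4 at -0.47. The part of these cell type markers in the ABC results was not tested, and in bulk RNA fewer cells of a type and less RNA per cell cannot be told apart.

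ABC proteins bind and split ATP through paired nucleotide-binding domains. Most use that energy to move a substrate across a membrane. The drug efflux pumps of subfamilies B, C and G export hydrophobic drugs and conjugates of glutathione or glucuronate, and ABCB1, ABCC1 and ABCG2 are the classical genes of multidrug resistance. Subfamily A and part of subfamily G move cholesterol, phospholipids and other lipids. Subfamily D, apart from ABCD4, brings fatty acyl chains into peroxisomes. ABCE1 and subfamily F carry no membrane domain and act in translation.

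Of the 39 members compared, 3 were at least 2-fold higher (ABCB1, ABCA5 and ABCG1) and 2 at least 2-fold lower (ABCA3 and ABCB6) in the library labelled DR, on the scale of log2 (CPM + 0.5). Of all 16210 genes compared, 7.48% were higher and 4.16% lower by the same rule, so the members' shares, 7.69% and 5.13%, were close to the background. The DNA just before the starts of these 5 genes is shown because they are the members that differed most. Sequences are 250 bases upstream of a start from RefSeq (GRCh38.p14), read 5′ to 3′ on the gene's strand. Capitals mark the GC box (GGGCGG) and the CCAAT box (CCAAT) on either strand. ABCG1 has no entry in the promoter table.
ABCA3, chr16:2340729-2340978, minus strand: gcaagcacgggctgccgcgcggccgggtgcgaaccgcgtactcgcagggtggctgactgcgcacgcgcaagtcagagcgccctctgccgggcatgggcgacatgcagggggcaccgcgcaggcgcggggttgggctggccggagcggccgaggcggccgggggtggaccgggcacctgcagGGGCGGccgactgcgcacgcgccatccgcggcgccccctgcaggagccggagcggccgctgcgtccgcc
ABCA5, chr17:69327134-69327383, minus strand: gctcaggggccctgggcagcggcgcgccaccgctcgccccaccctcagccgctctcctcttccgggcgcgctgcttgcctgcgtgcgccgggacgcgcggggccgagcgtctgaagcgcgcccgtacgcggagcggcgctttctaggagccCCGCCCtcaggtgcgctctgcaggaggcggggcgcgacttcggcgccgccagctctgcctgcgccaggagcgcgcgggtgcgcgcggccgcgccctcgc
ABCB1, start nearer the coding sequence, chr7:87600885-87601134, minus strand: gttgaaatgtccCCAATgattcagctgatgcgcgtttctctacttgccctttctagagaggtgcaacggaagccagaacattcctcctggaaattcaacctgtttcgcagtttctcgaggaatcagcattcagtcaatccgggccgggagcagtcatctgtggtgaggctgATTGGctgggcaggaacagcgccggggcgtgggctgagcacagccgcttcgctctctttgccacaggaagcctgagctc
ABCB1, start farther upstream, chr7:87713296-87713545, minus strand: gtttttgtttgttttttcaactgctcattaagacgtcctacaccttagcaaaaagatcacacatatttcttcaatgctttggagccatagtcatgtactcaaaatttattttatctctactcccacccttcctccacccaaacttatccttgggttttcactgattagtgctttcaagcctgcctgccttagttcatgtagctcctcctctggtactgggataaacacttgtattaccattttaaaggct
ABCB6, chr2:219218959-219219208, minus strand: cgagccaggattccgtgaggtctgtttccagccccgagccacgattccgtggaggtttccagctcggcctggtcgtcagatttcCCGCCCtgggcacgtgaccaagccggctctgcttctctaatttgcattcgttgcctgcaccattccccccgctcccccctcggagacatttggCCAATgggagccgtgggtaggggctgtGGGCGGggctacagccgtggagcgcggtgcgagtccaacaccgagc
A GC box lay before ABCA3, ABCA5 and ABCB6 (with 2 matches in ABCB6), which include members on both sides of the comparison. CCAAT lay at 2 places before the nearer start of ABCB1 and once before ABCB6. The farther start of ABCB1 held neither motif and had a GC content of 39.2%, against 79.2% before ABCA3 and ABCA5. Among 35116 promoters, 42.6% held a GC box and 32.0% a CCAAT box. Among the 53 promoters of 35 members, 25 and 11 held them, respectively. Of the other motifs searched on both strands, TATAAA was in 6 of the 53 (10.7% of all promoters), the E-box CACGTG in 9 (6.34%), the antioxidant response core TGACNNNGC in 9 (10.9%), the xenobiotic response core GCGTG in 21 (32.2%) and the sterol element TCACNCCAC in 0 (0.883%). A match is a run of letters and not evidence that a factor binds there.

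ABCB1 (gene ID 5243), the P-glycoprotein pump, had 99 reads against 1 read, or 1.78 and 0.0287 CPM. The log2 fold change of CPM + 0.5, the scale used throughout, was 2.11, with a 95% Clopper-Pearson interval of 1.75 to 2.20. The ratio of CPM without the pseudocount was 62.1, with an interval of 10.9 to 2478 that reflects the single read in the library labelled WT. These intervals cover read counting only, since no molecular identifiers are described and each label has 1 library. ABCB1 passed the read minimum through the library labelled DR alone. RUNDC3B, which overlaps ABCB1 in RefSeq, had 88 and 34 reads, and whether the counting used strand is not given in the sources used here.

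Among the pumps ABCB1 was the single gene past 2-fold. The 10 pumps compared gave 1 higher and 0 lower gene, against 7.48% and 4.16% of all genes compared. With a pseudocount of 5 CPM in place of 0.5 CPM ABCB1 was under the line, and with 0.1 CPM ABCC6 was also past it. Over the 39 members the median log2 fold change was -0.04, against 0.01 over all genes compared. The median size of the change, irrespective of sign, was 0.27 for members and 0.31 for all genes. Counting intervals lay wholly above 0 for 11 members and wholly below 0 for 11. Of all 16210 genes compared, they lay above 0 for 5805 and below 0 for 5604, a larger share in each direction than among the members.

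**Figure D1:**
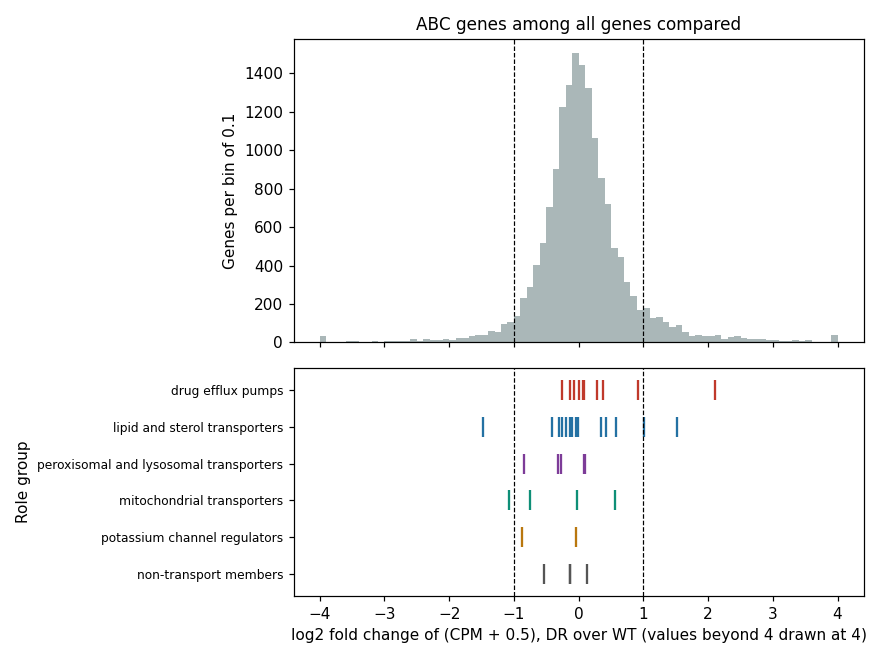
Upper axis, number of genes compared per bin of log2 fold change (CPM + 0.5, library labelled DR over library labelled WT); lower axis, the same change for each of 39 ABC genes as a tick by role group, with dashed lines at 2-fold. Of the ticks, 34 lie between the dashed lines, and the one farthest right is ABCB1 at 2.11.

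ABCB1 was a minor pump by level per length in both libraries. Per kilobase of gene length, its level was 0.378 CPM in the library labelled DR, 7th of 11 pumps, and 0.00608 CPM under the WT label, the lowest of 11. In both libraries its counting interval overlapped that of ABCC6. It made up 0.624% of the summed level of the pumps per kilobase in the library labelled DR. ABCC1, the glutathione conjugate exporter MRP1, stood first in both libraries with 20.8 and 17.1 CPM per kilobase and made up 34.5% and 32.2% of that sum.

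ABCC1 had 7107 and 3650 reads, or 128 and 105 CPM, a log2 fold change of 0.29 (0.23 to 0.35). ABCG2, the breast cancer resistance protein, had 2441 and 1173 reads, or 43.9 and 33.6 CPM, a log2 fold change of 0.38 (0.28 to 0.48). Both classical pumps were thus higher in the library labelled DR by less than 2-fold, with counting intervals above 0. Differences of this size were common, since the median size over all genes compared was 0.31. Intervals lay above 0 for 5805 of the 16210 genes. Per kilobase, ABCG2 stood at 9.88 CPM in the library labelled DR, where ABCC4, at 9.52, overlapped it within counting error, and at 7.57 CPM in the library labelled WT, below ABCC1, ABCC5 and ABCC4 and overlapping ABCC10 at 7.75.

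ABCC5, an exporter of cyclic nucleotides and related anions, had 2986 and 1768 reads, or 53.7 and 50.7 CPM, and ABCC4, which exports cyclic nucleotides and prostaglandins, had 3008 and 1810 reads, or 54.1 and 51.9 CPM. Their log2 fold changes were 0.08 (-0.0017 to 0.17) and 0.06 (-0.02 to 0.14). For these genes and for ABCC10, at 34.6 and 34.3 CPM, the counting interval of the difference held 0. ABCB5, a pump described in melanoma cells, had 99 and 78 reads, or 1.78 and 2.24 CPM, a log2 fold change of -0.26 (-0.62 to 0.09). Per kilobase it stood above ABCB1 in the library labelled DR, at 0.693 CPM, and its intervals in the 2 libraries overlapped.

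ABCC6, whose loss causes pseudoxanthoma elasticum, lay just under the 2-fold line with 37 and 4 reads, a log2 fold change of 0.92 (0.47 to 1.19). That value rests on the pseudocount, and the ratio of CPM without it was 5.80 (2.09 to 22.4). ABCC6 has near-identical pseudogene copies, so its count is uncertain. ABCC2 and ABCC11 had between 28 and 53 reads in a library and log2 fold changes of -0.13 and -0.07. ABCC3 had 4 reads in each library. Summed over the pumps, the libraries held 320 and 280 CPM, a ratio of 1.15 (1.12 to 1.17), of which ABCC1 supplied 128 and 105 CPM.

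**Figure D2:**
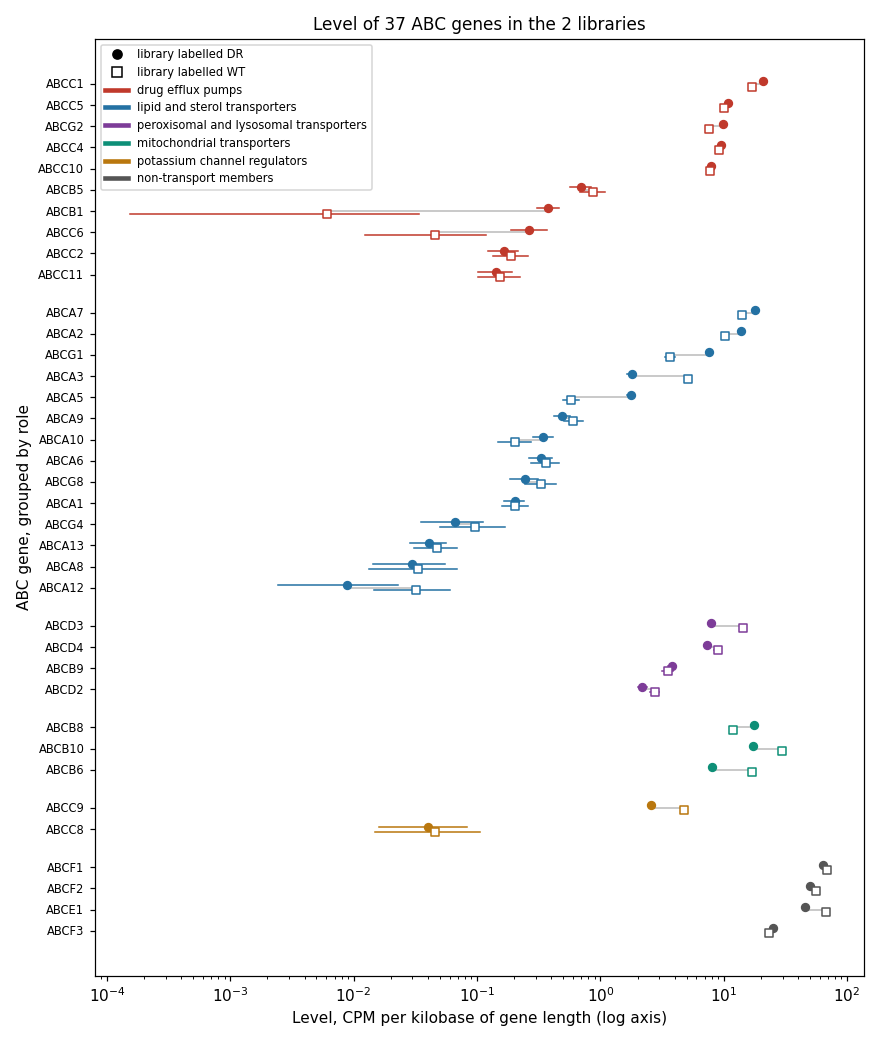
Level of 37 of the 39 ABC genes compared in CPM per kilobase of gene length on a log axis, with filled circles for the library labelled DR, open squares for the library labelled WT, and bars for the exact 95% Poisson interval of the read count. ABCF1, ABCF2 and ABCE1 sit above all other members, between 45.8 and 69.2, and the widest gap is that of ABCB1.

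Among the lipid and sterol transporters, 14 of 18 were compared, 2 were past 2-fold higher and 1 lower, and the median log2 fold change was -0.07. The shares over all genes compared were 7.48% and 4.16%, so counts this small do not set the group apart. ABCA5 (gene ID 23461), a lysosomal and endosomal transporter linked to cholesterol efflux, had 892 and 185 reads, or 16.1 and 5.31 CPM. Its log2 fold change was 1.51 (1.30 to 1.73). ABCG1 (gene ID 9619), which passes cholesterol to HDL, had 1241 and 379 reads, or 22.3 and 10.9 CPM, a log2 fold change of 1.01 (0.84 to 1.17). ABCG1 thus lay on the 2-fold line, and with DESeq2's size factors in place of TMM it was below it. ABCA3 (gene ID 21), which loads phospholipids into lamellar bodies, went the other way with 659 and 1187 reads, or 11.9 and 34.0 CPM. Its log2 fold change was -1.48 (-1.62 to -1.35), a CPM 2.87-fold (2.61 to 3.16) lower in the library labelled DR.

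The order of levels within the group differed between the libraries. Per kilobase, ABCA3 followed ABCA7 and ABCA2 in the library labelled WT, at 5.14 CPM, ahead of ABCG1 at 3.67. In the library labelled DR, ABCG1 followed them at 7.54 CPM per kilobase, and ABCA3 and ABCA5, at 1.79 and 1.76, overlapped within counting error. ABCA7 and ABCA2 led in both libraries. ABCA7, a phospholipid exporter linked to phagocytosis, had 6498 and 3203 reads, or 117 and 91.9 CPM, a log2 fold change of 0.35 (0.29 to 0.41). ABCA2, a lysosomal transporter abundant in myelin-forming cells, had 6153 and 2879 reads, or 111 and 82.6 CPM, a log2 fold change of 0.42 (0.36 to 0.49). ABCA1, which starts HDL formation, had only 113 and 72 reads, or 2.03 and 2.07 CPM, with a log2 fold change of -0.02 (-0.37 to 0.34). Per kilobase, ABCA1 stood at 0.202 and 0.205 CPM, below ABCG1, the other exporter to HDL, in both libraries. The remaining members of this group that were compared outside chromosome 17, ABCA12, ABCA13, ABCG4 and ABCG8, had between 4 and 59 reads in a library and log2 fold changes from -0.41 to -0.13. ABCA4, ABCB11 and ABCG5 had between 1 and 8 reads in a library.

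The members that lie side by side on chromosome 17 differed among themselves. In RefSeq order ABCA8, ABCA9, ABCA6, ABCA10 and ABCA5 follow each other, and their log2 fold changes were -0.04, -0.26, -0.10, 0.58 and 1.51. ABCA10, next to ABCA5, had 121 and 45 reads and an interval of 0.20 to 0.96, while the intervals of ABCA8, ABCA9 and ABCA6 held 0. On the other side of ABCA5, the nearest gene compared was MAP2K6, a kinase of the p38 pathway, with 276 and 74 reads and a log2 fold change of 1.06 (0.74 to 1.38). The next gene compared there was SOX9, at 73 and 15 reads and 0.96 (0.51 to 1.36). Around ABCB1, CROT, a peroxisomal acyltransferase, had 285 and 79 reads and a log2 fold change of 1.03 (0.72 to 1.34). The other three genes compared near ABCB1, TMEM243, RUNDC3B and SLC25A40, were at 0.63, 0.50 and 0.20. ABCB4, a phosphatidylcholine exporter of liver that lies between CROT and ABCB1, had 1 read and 0 reads. The nearest genes compared on both sides of ABCA3, ABCB6 and ABCG1, 4 for each, held none past 2-fold, against 1 of 4 for ABCB1 and 1 of 4 for ABCA5. Of all genes compared, 7.48% were 2-fold higher and 4.16% lower, so counts this small do not set these regions apart. These neighbours were looked at after the values of the members were known.

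**Figure D3:**
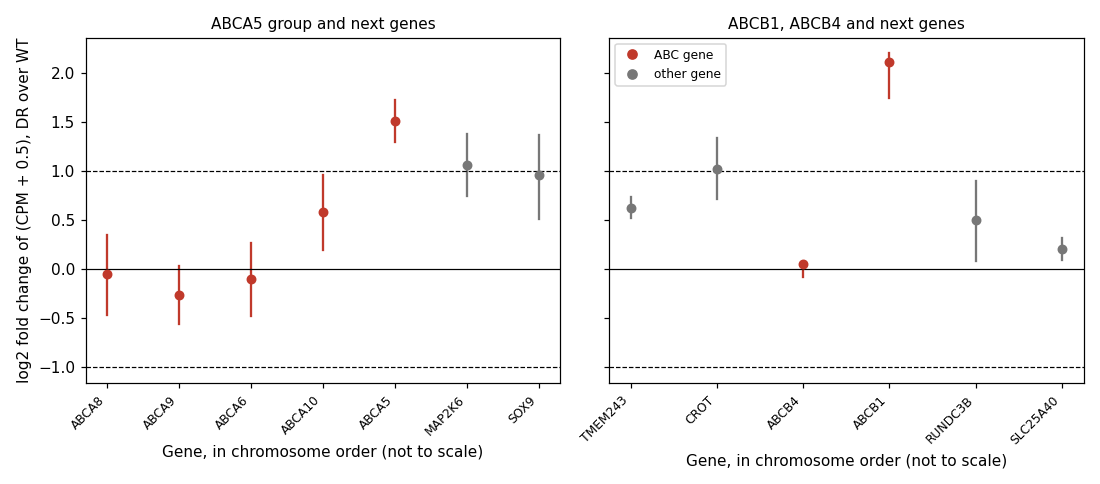
log2 fold change (CPM + 0.5, library labelled DR over library labelled WT) with 95% counting intervals for ABC genes (red) and other genes (grey) in chromosome order, without scale for distance, and dashed lines at 2-fold. On the left the lowest value is -0.26 at ABCA9 and the highest 1.51 at ABCA5, followed by MAP2K6 at 1.06 and SOX9 at 0.96. On the right ABCB1 stands above all its neighbours.

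The 4 mitochondrial transporters differed among themselves in direction, and 1 was past 2-fold lower, against 4.16% of all genes compared. ABCB6 (gene ID 10058), a porphyrin transporter, had 1336 and 1787 reads, or 24.0 and 51.3 CPM, a log2 fold change of -1.08 (-1.18 to -0.97). Its CPM was 2.13-fold (1.98 to 2.29) lower in the library labelled DR. ABCB10, an inner membrane transporter needed for haem synthesis, had 3567 and 3793 reads, or 64.2 and 109 CPM, a log2 fold change of -0.76 (-0.82 to -0.69). ABCB8, part of a mitochondrial potassium channel and of iron export, had 4562 and 1936 reads, or 82.1 and 55.5 CPM, and went the other way at 0.56 (0.48 to 0.64). The intervals of these 3 genes did not overlap each other. Under the WT label, ABCB10 led per kilobase at 29.4 CPM, and in the library labelled DR it was level within counting error with ABCB8, at 17.4 and 17.5.

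Of 15 other genes of mitochondrial haem and iron-sulfur synthesis, 1 was lower and 0 were higher past 2-fold, with a median log2 fold change of 0.04. Over all genes compared, 4.16% were lower and 7.48% higher. The lower gene was GLRX5, a glutaredoxin that passes on iron-sulfur clusters, with 1889 and 2507 reads, or 34.0 and 71.9 CPM, and a log2 fold change of -1.07 (-1.16 to -0.98). FECH, which inserts iron into haem, was at 0.01.

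None of the 5 peroxisomal and lysosomal transporters was past 2-fold. ABCD3, a peroxisomal importer of branched acyl chains and bile acid precursors, came nearest with 1451 and 1643 reads, or 26.1 and 47.1 CPM, a log2 fold change of -0.84 (-0.94 to -0.74). ABCD4, which carries cobalamin out of lysosomes, had 964 and 733 reads, or 17.4 and 21.0 CPM, at -0.27 (-0.41 to -0.13). ABCB9, a lysosomal peptide transporter, had 685 and 399 reads, or 12.3 and 11.4 CPM, at 0.10 (-0.07 to 0.28). ABCD2, a peroxisomal importer of very long acyl chains, was at -0.32 (-0.49 to -0.14). Summed over this group the ratio of CPM was 0.756 (0.724 to 0.790), and ABCD3 made up 31.8% and 43.4% of the group's summed level per kilobase. Of 19 genes of peroxisome biogenesis and beta-oxidation and 8 of lysosomal cobalamin handling, 0 were past 2-fold in either direction.

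ABCC9, the SUR2 subunit of ATP-sensitive potassium channels, had 1194 and 1382 reads, or 21.5 and 39.6 CPM, a log2 fold change of -0.87 (-0.98 to -0.76). Its relative ABCC8, the SUR1 subunit of pancreatic beta cells, had 7 and 5 reads. KCNJ11, a pore subunit of the same channels, had 743 and 466 reads, or 13.4 CPM in both libraries.

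Of the 4 non-transport members, ABCF1, ABCF2 and ABCE1 had the highest levels per kilobase of all members in both libraries. The median size of the differences in this group, 0.14, was the smallest of the role groups of 4 or more. ABCF1, which works in translation initiation, had 12193 and 8386 reads, or 219 and 241 CPM, a log2 fold change of -0.13 (-0.17 to -0.09). ABCF2 had 8250 and 5708 reads, or 148 and 164 CPM, at -0.14 (-0.19 to -0.09). ABCF3 was at 0.12 (0.05 to 0.20). ABCE1, which splits ribosomes after termination, differed most in this group with 10674 and 9765 reads, or 192 and 280 CPM, a log2 fold change of -0.54 (-0.58 to -0.50). Per kilobase it stood at 66.8 CPM in the library labelled WT, overlapping ABCF1 at 69.2, and at 45.8 CPM in the library labelled DR, behind ABCF1 at 63.2 and ABCF2 at 50.4. Of 9 genes of translation and its control, 0 were past 2-fold, and their median log2 fold change was -0.35. These genes include recycling and release factors, and also EIF2S1, EIF2AK4 and GCN1. Their values ran from -0.84 at EIF2S1 to 0.39 at EIF2AK4. PELO, which acts with ABCE1 on stalled ribosomes, was at -0.35.

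**Figure D4:**
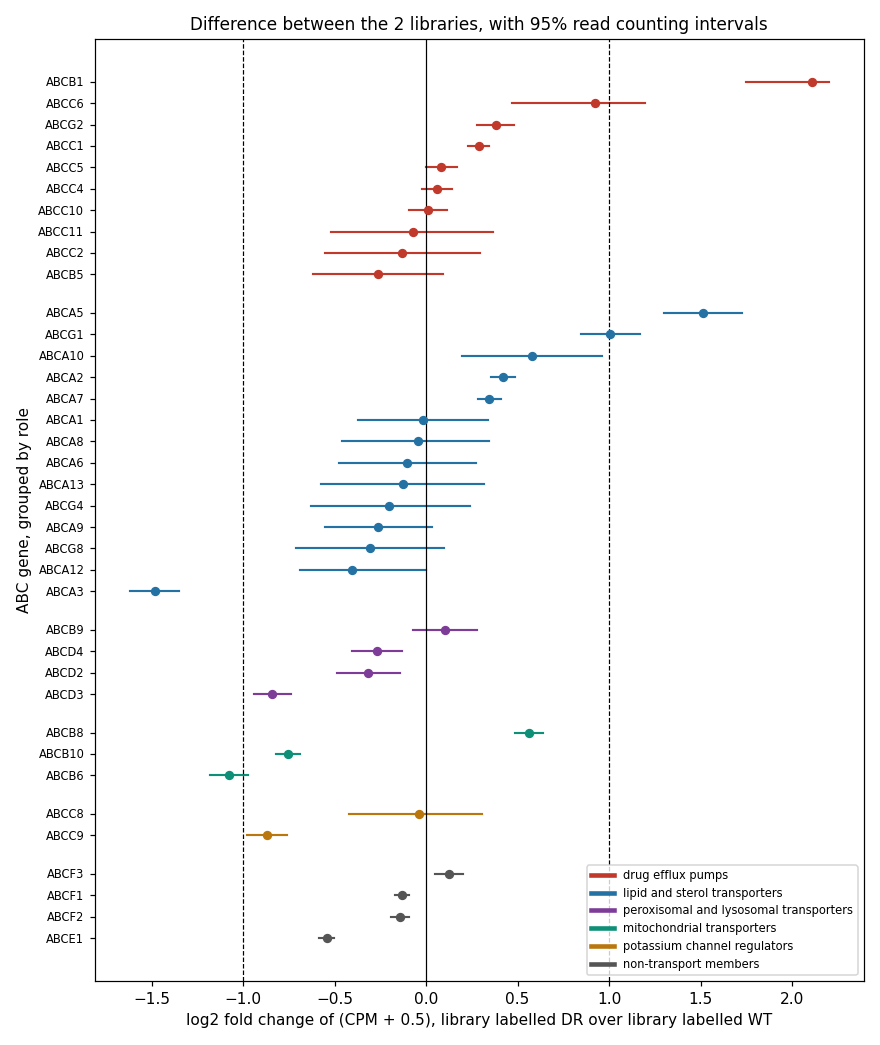
log2 fold change (CPM + 0.5, library labelled DR over library labelled WT) of 37 of the 39 ABC genes compared, by role, with bars for the 95% Clopper-Pearson interval of read counting and dashed lines at 2-fold. ABCB1, ABCA5 and ABCG1 lie right of the upper line, ABCA3 and ABCB6 left of the lower line, and the bars of ABCG1 and ABCB6 each cross their line.

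Set side by side, the pumps had a median log2 fold change of 0.07, the lipid and sterol transporters -0.07, the peroxisomal and lysosomal transporters -0.27, the mitochondrial transporters -0.39 and the non-transport members -0.14. As summed CPM the pumps and the lipid transporters were higher in the library labelled DR, at ratios of 1.15 and 1.22. The mitochondrial and non-transport members were lower, at 0.821 and 0.841. Lower still were the peroxisomal and lysosomal transporters at 0.756 and the 2 potassium channel regulators at 0.543. These sums follow the few genes with most reads. Genes of 1 group are not replicates, so the differences between roles were not tested.

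Further family members carry other symbols. TAP1 and TAP2, which load peptides for antigen presentation, were both under 2-fold. TAP1 had 5955 and 2888 reads, or 107 and 82.8 CPM, at a log2 fold change of 0.37 (0.31 to 0.43), and TAP2 had 11034 and 6310 reads, or 199 and 181 CPM, at 0.13 (0.09 to 0.18). CFTR, a chloride channel, had 6 reads and 0 reads, too few to compare. Of 16 genes of sterol homeostasis, which include the LXR receptors that act on ABCA1 and ABCG1, 0 were past 2-fold in either direction, with a median of 0.09. NR1H2 and NR1H3, the receptors themselves, were at 0.16 and 0.09. Of 14 regulators and effectors of the response to xenobiotics, 0 were past 2-fold, with a median of -0.21. NR1I2, the pregnane X receptor known to induce ABCB1, had 15 and 2 reads, and NFE2L2, the NRF2 factor, was at -0.54.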

How the data were processed

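The authors deposited 1 table with estimated counts per gene for both libraries, gene lengths, annotation, and columns of their own comparison (a log2 ratio with p- and q-values), which were not used. The submitters' processing notes name Bowtie 0.12.2 and the build hg19 with no role given. The counting tool is not given in the sources used here. Estimated counts were fractional for 22 of the 44 members with counts and were rounded. They were scaled by TMM over all genes with counts (edgeR 4.0.16, R 4.3.3), with genes under 10 reads over both libraries left out and a pseudocount of 0.5 CPM. Levels between genes were divided by the deposited length. Intervals are exact 95% Clopper-Pearson or Poisson intervals (SciPy 1.17.1, Python 3.11.15). A gene was counted as higher or lower at 2-fold, with no p-value, since edgeR's quasi-likelihood test needs replicates.

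Full values were given for members past 2-fold, the 3 with most reads per kilobase in each role, ABCB1, ABCC1 and ABCG2. From the other lists they were given for up to 3 genes past 2-fold at a mean of 5 CPM or more, and for TAP1 and TAP2, with the reads alone for CFTR, which was under the read minimum. Other genes named, such as ABCA10, ABCC6, SOX10, SOX9, MAP2K6, FECH, PELO, NFE2L2 and the sterol and xenobiotic receptors, were chosen after their values were seen. The members and lists were chosen with earlier results of these data known. RefSeq (GRCh38.p14) served for gene order, matching 44 members, and for promoter sequence only, and promoter coordinates are of that build. Some members are not reported singly here.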

Additional observations from a re-analysis of the deposited data

How the results depend on the processing

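The count of 3 members higher and 2 lower depended on the fold asked for, the pseudocount and the members with fractional counts. With a pseudocount of 5 CPM, 1 member was higher (ABCA5), 1 lower (ABCA3), and 0 pumps were higher. With 0.1 CPM, 4 members were higher, of which 2 were pumps (ABCB1 and ABCC6), and 3 were lower (ABCA3, ABCB6 and ABCA12). Leaving out members with fractional counts left 0 members and 0 pumps higher, since ABCB1, ABCA5 and ABCG1 have such counts (98.92 estimated reads for ABCB1 in the library labelled DR). At 1.5-fold, 2 pumps were higher and 5 members lower. At 4-fold, 1 member was higher (ABCB1) and 0 lower. Asking that the near end of the counting interval pass 2-fold left 1 lower member (ABCA3) and 2 higher. With DESeq2's size factors, 2 members were higher (ABCG1 was lost). Library totals, no filter, a minimum of 50 reads, and TMM from genes with at least 10 reads, the last chosen after seeing the data, kept the same 5 members. No pump was lower under any setting run. The median of all members ran from -0.11 (0.1 CPM) to -0.02 (5 CPM). Of 22 members described singly, 6 left their counting interval with a pseudocount of 5 CPM and 1 with 0.1 CPM. At this depth 3 reads are 0.054 and 0.0861 CPM. Which members were compared was set by the minimum of 10 reads over both libraries and not by that level. No paired analysis was possible because each condition has 1 library.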
